A study of Mus musculus with 24 samples.

Results

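Expression in the fast-cycling, non-label-retaining cells (nLRC) of mouse tail epidermis was compared between animals aged 2 years and 2 months. The comparison rests on 6 of the 24 libraries of the series, taken by their titles, with 3 libraries at each age. Of 49585 genes listed, 13554 passed a low-count filter over these 6 libraries and were tested. All mice were C57BL/6J and carried both transgenes, K5-tTA and pTRE H2B-GFP, and the young as well as the old had been fed doxycycline for 2 weeks. Tail skin was digested with trypsin, the cells were stained with antibodies and sorted into Trizol, and libraries were made from total RNA with a stranded low-input kit. The antibodies, the sort gates and the number of mice behind a library are not given in the sources used here. The other sorted populations, slow-cycling label-retaining cells (LRC) and hair follicle stem cells (HFSC), have 3 libraries each at 2 months and at 2 years. All 3 populations also have 2 libraries at 1.5 years.

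The epidermis is renewed from a basal layer of keratinocytes that express Krt5 and Krt14 and are anchored to the basement membrane. Cells that leave this layer switch to Krt1 and Krt10 and later build the cornified envelope. In this mouse the keratin 5 promoter drives a transactivator that switches on a green fluorescent histone, and doxycycline stops its synthesis. Cells that divide often then dilute the label, so nLRC are basal cells that lost it and LRC are cells that kept it. In tail skin, fast-cycling basal cells are known for feeding the scale areas and slow-cycling cells for feeding the interscale areas between them. The model labels only cells in which the keratin 5 promoter is active, and a cell that never made the histone also appears unlabelled.

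The nLRC libraries held 10975551 to 13292358 gene reads at 2 months and 8024983 to 10923714 at 2 years. Exonic reads made up 53.9 to 59.3% of gene reads at 2 months and 43.9 to 57.6% at 2 years. The lowest share belonged to replicate 1 at 2 years, which also had reads in 15689 genes where the other nLRC libraries of both ages had reads in 19634 to 21702. Replicates 1 and 2 of both ages belong to one library set and replicate 3 of both ages to another, as named in the deposited files. Nothing in the labels says that the libraries of a group came from separate mice, so the p-values measure the spread between these libraries, which may be technical. In sorted cells sequenced in bulk, fewer cells of a type and less RNA per cell cannot be told apart.

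The labels were checked against markers of the sorted populations before the ages were compared. At 2 months the nLRC libraries had high Krt5 and Krt14, at 8112 to 11500 and 9587 to 13910 CPM (gene reads scaled by library size), and near-absent Cd34, the surface marker of follicle bulge stem cells, at 0 to 0.258 CPM. They differed from LRC of the same age in 661 genes (4.69% of 14104 tested, edgeR adjusted p under 0.05) and from HFSC in 3238 genes (23.4% of 13819). With 1 nLRC library left out in turn these counts at 2 months were 245 to 322 and 2361 to 2916, and DESeq2 called 1404 and 3613. Markers of cycling rate, given here on the scale of all 24 libraries, were mixed between nLRC and LRC at 2 months. Dlx1, a slow-cycling marker, went against the label, with 4.34 to 7.28 CPM in nLRC and 2.55 to 3.15 CPM in LRC (edgeR adjusted p 0.138). Mki67 overlapped, at 336 to 352 and 318 to 659 CPM, as did the fast-cycling marker Slc1a3, at 10.1 to 16.7 and 2.31 to 13.0 CPM. The scale gene Dlx3 was higher in nLRC (log2 fold change 3.96, edgeR adjusted p 0.00115). At 2 years, edgeR called 0 of 14131 genes between nLRC and LRC and 0 of 13961 between nLRC and HFSC. Unadjusted p fell under 0.05 for 643 and 702 genes in these 2 tests, and DESeq2 called 2 genes in each. The spread between libraries was larger at 2 years. The common biological coefficient of variation was 0.437 and 0.402 in these tests, against 0.28 and 0.247 at 2 months. With 1 nLRC library left out in turn, edgeR called 0 genes against LRC and 0 to 1 against HFSC at 2 years. These comparisons within an age were added after the levels at 2 years had been seen. The libraries labelled HFSC at 2 years went against their label: on the scale of all 24 libraries their Cd34 was 9.25 to 12.3 CPM, against 111 to 184 CPM in HFSC at 2 months, and their Krt10 was 1815 to 3352 CPM, against 39.0 to 53.2 CPM. The cause was not tested. Each nLRC change below involves old libraries in which no gene was called against the other 2 populations of that age.

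At 2 years 367 genes had changed in nLRC (2.71% of 13554, edgeR quasi-likelihood test, adjusted p under 0.05). Of these, 336 were higher (2.48%) and 31 lower (0.229%). The median log2 fold change of the higher genes was 2.80 and that of the lower genes -1.44, against -0.006 over all genes tested, and 239 of the 336 rose by more than 4-fold. In all 367 called genes the libraries of the 2 ages did not overlap, as in 2787 of all genes tested. The count moved with single libraries: 234, 132 and 107 genes were called without 2 month replicate 1, 2 and 3, and 485, 411 and 227 without 2 year replicate 1, 2 and 3. In the first library set alone, with 2 libraries per age, 11 genes were called, all higher and all among the 367: Cst6, Ctgf, Hba-a1, Hbb-bs, Krt79, Ly6g6c, Pdzrn3, Sox9, Spink5, Tyrp1 and Vim.

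**Figure D1:**
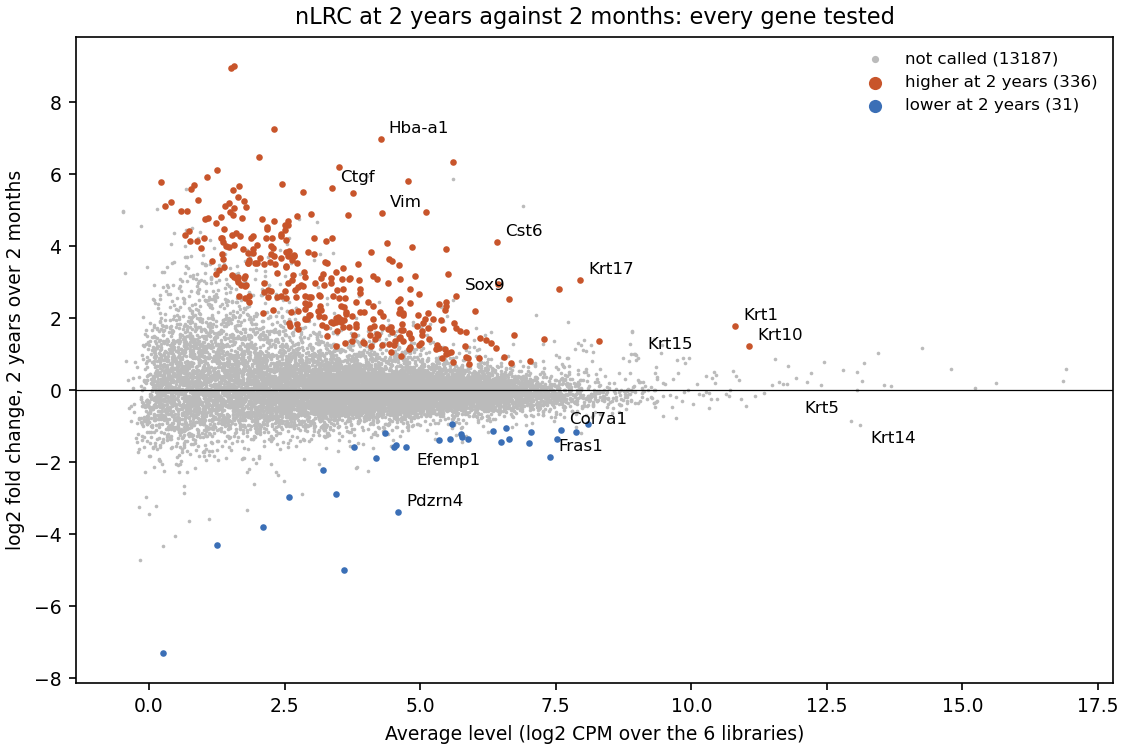
Each point is 1 of the 13554 genes tested, with its average level (log2 CPM) on the x axis and its fitted log2 fold change of nLRC at 2 years over 2 months on the y axis. Called genes are coloured, 336 higher in orange and 31 lower in blue; the risen genes reach from low levels such as Ctgf to the abundant keratins Krt1 and Krt10, while Krt5, Krt14 and Krt15 were not called; fitted values of genes with almost no reads at 1 age are drawn but are no bounds.

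Genes of the hair follicle bulge, the niche of follicle stem cells, were among those that rose. Of 20 members of the bulge list 17 were tested, 9 were called higher and 0 lower, and the list's median log2 fold change was 2.10. Over all genes tested 2.48% were called higher and 0.229% lower. Sox9, a transcription factor of follicle stem cells (chromosome 11, 112782224 to 112787760), had 13.9, 13.2 and 15.8 CPM in the young libraries and 99.2, 74.8 and 88.9 CPM in the old. The 2 ages were well apart, and the lowest old library lay above every young one (log2 fold change 2.62, SE 0.20, adjusted p 1.41e-04 by edgeR). Lhx2, a factor that keeps bulge cells quiescent (chromosome 2, 38339281 to 38369733), had at most 3 reads in each young library and 6.56, 4.45 and 8.75 CPM in the old ones. At 2 years its level was higher by at least 27.6-fold (adjusted p 0.00336 by edgeR). Cd34 (chromosome 1, 194938819 to 194961279) behaved alike, with at most 3 reads in each young library and 5.25, 5.98 and 6.99 CPM in the old ones, at least 25.5-fold higher (adjusted p 0.00705 by edgeR). Both fold values are lower bounds, taken against 3 reads per young library.

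Other called members of the bulge list were the transcription factors Foxc1, Tbx1 and Nfatc1, the Wnt modulator Dkk3, the ligand Bmp6 and Ctgf. Foxc1 rose from 1.98, 1.77 and 1.88 CPM to 9.84, 18.1 and 16.4 CPM (log2 fold change 2.97, SE 0.37, adjusted p 0.00241 by edgeR). Dkk3 rose from 8.44, 12.02 and 9.11 CPM to 35.4, 53.5 and 36.3 CPM (log2 fold change 2.08, SE 0.26, adjusted p 0.00241 by edgeR). Each of the old libraries was above all of the young for both genes. Krt15, a keratin of both bulge and basal cells, had 238, 379 and 407 CPM at 2 months and 639, 863 and 527 CPM at 2 years, without overlap, but did not pass (log2 fold change 0.99, SE 0.27, adjusted p 0.0927 by edgeR). Lgr5, a marker of active follicle stem cells, had 0 to 1.64 CPM at 2 months and 5.98 to 11.97 CPM at 2 years and was not called (adjusted p 0.0885 by edgeR). Cd34 lost its call without 2 month replicate 3, and within the first library set alone neither Cd34 nor Lhx2 was called (adjusted p 0.261 and 0.184 by edgeR).

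Ctgf, which encodes a matricellular protein and is a known target of YAP (listed as Ccn2 in RefSeq, chromosome 10, 24595442 to 24598683 on GRCm38.p6), showed one of the steepest rises. It had 0.517, 0.295 and 0.393 CPM at 2 months and 17.6, 23.8 and 19.3 CPM at 2 years. The old libraries were close to one another and far above the young ones (log2 fold change 5.63, SE 0.39, adjusted p 1.14e-04 by edgeR). It kept its call within the first library set alone, with a log2 fold change of 5.64.

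Genes of suprabasal differentiation rose beside the bulge genes. Of 36 members of the list 32 were tested, and 12 were called higher and 0 lower, with a median log2 fold change of 1.45. The share called higher over all genes tested was 2.48%. Krt1, the keratin of early differentiation (chromosome 15, 101845426 to 101850794), had 602, 869 and 952 CPM at 2 months and 2948, 2954 and 2442 CPM at 2 years (log2 fold change 1.78, SE 0.26, adjusted p 0.00603 by edgeR). Its partner Krt10 (chromosome 11, 99385254 to 99389364) had 1354, 1318 and 1172 CPM and 3151, 2199 and 3648 CPM (log2 fold change 1.23, SE 0.26, adjusted p 0.0352 by edgeR). For both keratins every old library exceeded every young one. The call of Krt10 was lost without any 1 of the 3 young libraries, without 2 year replicate 1 or 3, and with a term for library set, where adjusted p reached 0.05 or more; the call of Krt1 was lost only in the first library set alone, where its log2 fold change was 2.00.

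Some later products of the cornified layer were called and others were not. Cdsn, the corneodesmosome adhesion protein (chromosome 17, 35552128 to 35557180), rose from 1.21, 0.516 and 1.33 CPM to 24.9, 11.5 and 17.95 CPM (log2 fold change 4.14, SE 0.47, adjusted p 0.00132 by edgeR). Cst6, a cysteine protease inhibitor of the cornifying layers and the follicle (chromosome 19, 5344705 to 5349574), rose from 8.18, 8.04 and 11.8 CPM to 179, 152 and 155 CPM. It had the smallest adjusted p among the named genes (log2 fold change 4.11, SE 0.22, adjusted p 3.09e-05 by edgeR). The envelope precursors Ivl, Lor, Sprr1a and Cnfn were called at lower levels; Sprr1a had 0.861, 0.738 and 1.65 CPM at 2 months and 5.58, 11.3 and 28.4 CPM at 2 years (log2 fold change 3.80, adjusted p 0.0108 by edgeR). Flg, the filaggrin gene, had 1.25 to 13.3 CPM at 2 months and 114 to 421 CPM at 2 years, yet its spread kept it from being called (adjusted p 0.0741 by edgeR). Dsp, Evpl, Ppl, Tgm3 and Grhl3, which belong to the same list, had log2 fold changes between -0.04 and 0.19 and were not called. Flg2, Hrnr and Tgm1, of the same list, had log2 fold changes of 4.24, 5.87 and 2.23 without passing (edgeR adjusted p 0.12, 0.154 and 0.0783), and Casp14 had -0.10.

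Keratins that are not part of the normal basal or suprabasal pair also moved. Krt17, a keratin of follicle and stressed epidermis (chromosome 11, 100256217 to 100261029), had 65.7, 25.3 and 65.5 CPM at 2 months and 580, 294 and 441 CPM at 2 years (log2 fold change 3.07, SE 0.40, adjusted p 0.00361 by edgeR). Krt80, an epithelial keratin tied to differentiation (chromosome 15, 101347444 to 101370162), had 12.3, 18.6 and 15.4 CPM and 89.6, 67.3 and 61.0 CPM (log2 fold change 2.23, SE 0.24, adjusted p 8.87e-04 by edgeR). Krt8, a keratin of simple epithelium and Merkel cells, had 0 reads in every young library and 11.97, 3.28 and 3.01 CPM in the old, at least 25.5-fold higher (adjusted p 0.0101 by edgeR). Its usual partner Krt18 had 0, 0.234 and 0 CPM at 2 years and was not tested. The wound keratins Krt6a and Krt16 were not called, at 54.6 to 125 and 47.8 to 107 CPM at 2 months against 153 to 470 and 47.6 to 96.4 CPM at 2 years.

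The promoters of 2 envelope genes that rose together are printed because both hold a match to TGANTCA, the AP-1 motif, in the 160 bases before the RefSeq start (GRCm38.p6, 5′ to 3′, minus strand; capitals mark the match). The motif, searched on both strands, reads the same on either, and occurs in 4.53% of 32851 promoter windows of this length. The windows lie at chr3:92485882-92486041 and chr3:92573736-92573895.
Sprr1a: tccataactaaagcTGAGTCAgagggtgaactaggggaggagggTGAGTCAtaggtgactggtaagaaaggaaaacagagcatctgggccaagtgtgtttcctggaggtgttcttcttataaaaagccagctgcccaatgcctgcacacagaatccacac
Ivl: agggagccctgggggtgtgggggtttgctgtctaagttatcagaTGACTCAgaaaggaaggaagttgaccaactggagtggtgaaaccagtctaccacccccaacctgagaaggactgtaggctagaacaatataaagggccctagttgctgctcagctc
The matches of Sprr1a begin 146 and 116 bases before the start and that of Ivl 116 bases before it. Ivl, the involucrin gene, had 2.41, 3.54 and 3.30 CPM at 2 months and 8.04, 8.67 and 13.2 CPM at 2 years (log2 fold change 1.69, adjusted p 0.0489 by edgeR). Both genes were printed for their match, so the share of windows is no test of it. A match is a description of the letters and not evidence of binding.

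**Figure D2:**
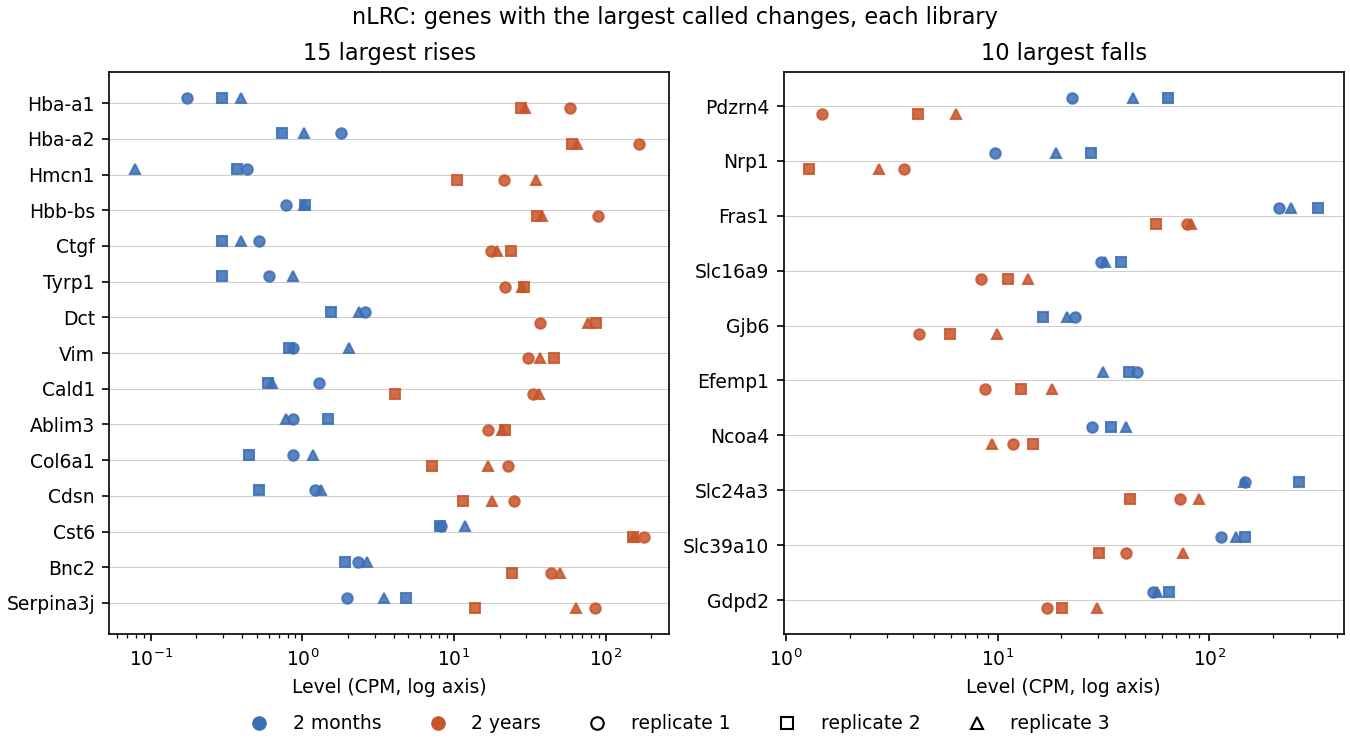
Each symbol is the level of a gene in 1 nLRC library (CPM on a log axis), blue for 2 months and orange for 2 years, with the replicate given by the shape; the left panel holds the 15 largest called rises and the right panel the 10 largest called falls. In every row the colours are apart, and Cst6 runs from 8.04 to 11.8 CPM at 2 months to 152 to 179 CPM at 2 years while Fras1 runs from 214 to 328 CPM down to 55.9 to 82.2 CPM.

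The falls were fewer and included genes of the basement membrane zone. Of the Fraser complex and fibulin list, Fras1, Frem2 and Efemp1 fell and Hmcn1 and Fbln2 rose, among 10 tested. Over all genes tested 0.229% were called lower and 2.48% higher. Fras1, an extracellular protein that anchors epidermis to the basement membrane (chromosome 5, 96373955 to 96784728), had 214, 328 and 244 CPM at 2 months and 78.7, 55.9 and 82.2 CPM at 2 years (log2 fold change -1.86, SE 0.23, adjusted p 0.00213 by edgeR). Its partner Frem2 had 89.2, 73.3 and 90.8 CPM and 32.6, 45.6 and 21.5 CPM (log2 fold change -1.35, adjusted p 0.0218 by edgeR). Efemp1, the gene of fibulin-3 (chromosome 11, 28853204 to 28926743), had 45.7, 41.7 and 31.4 CPM and 8.69, 12.9 and 18.1 CPM (log2 fold change -1.57, SE 0.29, adjusted p 0.0179 by edgeR). In each of these 3 genes all young libraries were above all old ones. Grip1, which encodes a protein that brings Fras1 to the cell surface, had a log2 fold change of -1.02 and was not called (adjusted p 0.0717 by edgeR). Fras1 lost its call only in the first library set alone (log2 fold change -2.01), whereas Efemp1 also lost it on exon reads, in the fit of all 24 libraries, and without 2 month replicate 1, 2 or 3 or 2 year replicate 2.

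Collagens of the same zone moved in both directions. Col7a1, the anchoring fibril collagen (chromosome 9, 108953586 to 108984875), had 235, 303 and 256 CPM at 2 months and 129.9, 130.1 and 110.2 CPM at 2 years (log2 fold change -1.10, SE 0.18, adjusted p 0.0105 by edgeR), and it lost its call without 2 year replicate 3. Col4a5 fell too (log2 fold change -1.21, adjusted p 0.0167 by edgeR). Col4a1 and Col4a2, the widespread collagen IV chains, rose from 0.516 to 1.21 and from 0.431 to 0.863 CPM to 4.34 to 17.2 and 6.45 to 14.0 CPM (edgeR adjusted p 0.00947 and 0.00247), and Col4a1 lost its call without 2 month replicate 2 or 3 or 2 year replicate 3. Of the 24 tested members of the hemidesmosome and basement membrane list, these 4 were called, 2 in each direction, and the median log2 fold change was -0.27. Over all genes tested 2.71% were called. The hemidesmosome genes Col17a1 and Itga6 were not called, with log2 fold changes of -0.43 and -0.49. Hmcn1, which encodes the basement membrane protein hemicentin, showed the reverse of Fras1: it had 0.431, 0.369 and 0.0785 CPM at 2 months and 21.3, 10.4 and 34.8 CPM at 2 years (log2 fold change 6.20, SE 0.63, adjusted p 6.68e-04 by edgeR).

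Among the remaining large falls, Pdzrn4, which encodes a PDZ and RING finger protein, had the widest drop of those named. Its levels were 22.5, 63.6 and 43.9 CPM at 2 months and 1.48, 4.22 and 6.37 CPM at 2 years (log2 fold change -3.38, SE 0.51, adjusted p 0.00903 by edgeR), but only 20% of its reads were exonic. Nrp1, a co-receptor for semaphorins and VEGF, fell from 9.73 to 27.6 CPM to 1.29 to 3.61 CPM (log2 fold change -2.89, adjusted p 0.0108 by edgeR). The transporters Slc16a9 and Slc39a10 and the connexin gene Gjb6 fell with log2 fold changes of -1.58, -1.44 and -1.57. Gdpd2, a glycerophosphodiesterase gene (chromosome X, 100729873 to 100738895), fell from 54.5, 64.3 and 56.8 CPM to 17.1, 20.3 and 29.5 CPM (log2 fold change -1.39, SE 0.23, adjusted p 0.0108 by edgeR). Ncoa4, the receptor for ferritin breakdown, fell from 28.1 to 40.4 CPM to 9.37 to 14.8 CPM (log2 fold change -1.52, adjusted p 0.0115 by edgeR). Slc24a3, with a log2 fold change of -1.46, lost its call in all 6 fits that left out a library, and 8.9% of its reads were exonic. Without 1 or more of the young libraries Pdzrn4, Nrp1, Slc16a9, Slc39a10, Gjb6, Gdpd2 and Ncoa4 also lost theirs.

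Several of the steepest rises encode cytoskeletal or matrix proteins. Vim, the intermediate filament gene of mesenchymal cells and melanocytes (chromosome 2, 13573927 to 13582826), had 0.861, 0.811 and 2.04 CPM at 2 months and 30.7, 45.5 and 36.9 CPM at 2 years (log2 fold change 4.91, SE 0.40, adjusted p 1.80e-04 by edgeR). Ablim3, an actin-binding LIM protein gene, had 0.861, 1.48 and 0.785 CPM and 16.7, 21.7 and 20.8 CPM (log2 fold change 4.22, SE 0.38, adjusted p 3.71e-04 by edgeR). The old libraries agree closely for these genes. Cald1, the caldesmon gene, was less even, with 33.0, 4.10 and 36.4 CPM at 2 years against 0.590 to 1.29 CPM at 2 months (log2 fold change 4.87, SE 0.80, adjusted p 0.0144 by edgeR), and it lost its call without 2 month replicate 2 or 3 or 2 year replicate 1. Col6a1 rose from 0.443 to 1.18 CPM to 7.15 to 22.8 CPM (log2 fold change 4.22, adjusted p 0.00287 by edgeR). Bnc2, a zinc finger gene with 23.9% exonic reads, rose from 1.92 to 2.67 CPM to 24.3 to 50.1 CPM (log2 fold change 4.09, adjusted p 2.57e-04 by edgeR). Serpina3j, a serine protease inhibitor gene with close copies, had 85.8, 13.7 and 63.8 CPM at 2 years against 1.98 to 4.80 CPM at 2 months; its call was lost without any 1 of the 3 young libraries, without 2 year replicate 1 or 3, in the fit of all 24 libraries and with a replicate block.

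Markers of other cell types also differed between the ages. Of the erythroid list, 5 of 6 tested genes were called higher; of the melanocyte list, 6 of 11; of the Langerhans and myeloid list, 5 of 6; of the fibroblast list, 3 of 8; and of the endothelial list, 2 of 8. No member of these 5 lists was called lower. Over all genes tested 2.48% were called higher, the share to set beside these counts and those of the lists below. Tested were 6 of 9 erythroid, 11 of 12 melanocyte and 6 of 15 Langerhans and myeloid genes listed. For fibroblasts these were 8 of 15, and for endothelial cells 8 of 12. Of those tested, 1 erythroid, 3 Langerhans and myeloid and 1 endothelial gene had at most 3 reads in every young library. Such genes passed the filter through the old libraries alone, so their direction was fixed by it. Among the globin genes, which encode the chains of haemoglobin, Hba-a1 (chromosome 11, 32283511 to 32284465) had 0.172, 0.295 and 0.393 CPM at 2 months and 57.9, 27.7 and 29.5 CPM at 2 years (log2 fold change 6.99, SE 0.47, adjusted p 1.01e-04 by edgeR). Its copy Hba-a2 is nearly the same in sequence, and how reads were divided between the pair is uncertain. Hbb-bs had 0.775, 1.03 and 1.02 CPM and 89.2, 35.1 and 37.9 CPM (log2 fold change 5.81, SE 0.45, adjusted p 1.45e-04 by edgeR). Hbb-bt and Alas2, a gene of haem synthesis, were also called higher. Slc4a1, the red cell anion exchanger, had 0 to 0.619 CPM over the 6 libraries.

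The summed erythroid list was 11.2 to 12.8 CPM at 2 months and 146 to 342 CPM at 2 years, highest in replicate 1. The melanocyte list summed to 138 to 146 and 164 to 286 CPM, the Langerhans and myeloid list to 2.67 to 4.31 and 23.6 to 74.6 CPM, and the endothelial list to 19.9 to 25.9 and 55.8 to 157 CPM. For each of these 4 lists the ranges of the ages were apart. Pecam1 made up most of the endothelial sum, and only 3.7% of its reads were exonic. Both called endothelial genes, Pecam1 and Cdh5, lost their calls without 2 month replicate 1, 2 or 3. The fibroblast sums overlapped, at 200 to 254 and 196 to 241 CPM, while 7 of its 8 tested members had higher values at 2 years, with a median log2 fold change of 3.71. Its untested members Lum and Dpt had 0 reads in all young libraries and 0 to 0.884 and 0 CPM in the old. The T cell list overlapped at 44.9 to 58.7 and 29.9 to 57.7 CPM, with 0 of 2 tested genes called, as did the skeletal muscle list at 9.50 to 13.6 and 6.99 to 11.02 CPM, with 0 of 3 called. Only these 2 of 14 and 3 of 12 members passed the filter. Thy1 alone had 44.4 to 58.0 and 25.5 to 55.6 CPM of the T cell sum. Lck, the other tested T cell gene, was at least 4.63-fold higher at 2 years and was not called (adjusted p 0.212 by edgeR). Among Merkel cell genes, Atoh1, Sox2 and Pou4f3 had 0 reads in all 6 libraries, beside the rise of Krt8, and the list summed to 1.18 to 4.39 and 7.07 to 18.5 CPM. Piezo2, of the same list, had 0.221 to 1.38 and 2.74 to 6.40 CPM without overlap and was not called (adjusted p 0.097 by edgeR). The remaining tested member, Syt1, had a log2 fold change of -0.78. Sebaceous gland genes summed to 390 to 749 and 683 to 1554 CPM; edgeR called 0 of 12, although 11 of the 12 had higher values, with a median log2 fold change of 1.27. Among them Scd1, a fatty acid desaturase gene, had 162.5 to 329 and 347 to 938 CPM (adjusted p 0.0629 by edgeR) and was called in 6 of 18 alternatives. Nerve and Schwann cell genes summed to 52.9 to 70.6 and 68.7 to 89.9 CPM with Sox10 and Egr2 called of 6. Sox10 is also a called member of the melanocyte list and Egr2 of the immediate early and stress list. The part of these cell types in the rises of bulge, differentiation and matrix genes was not tested.

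**Figure D3:**
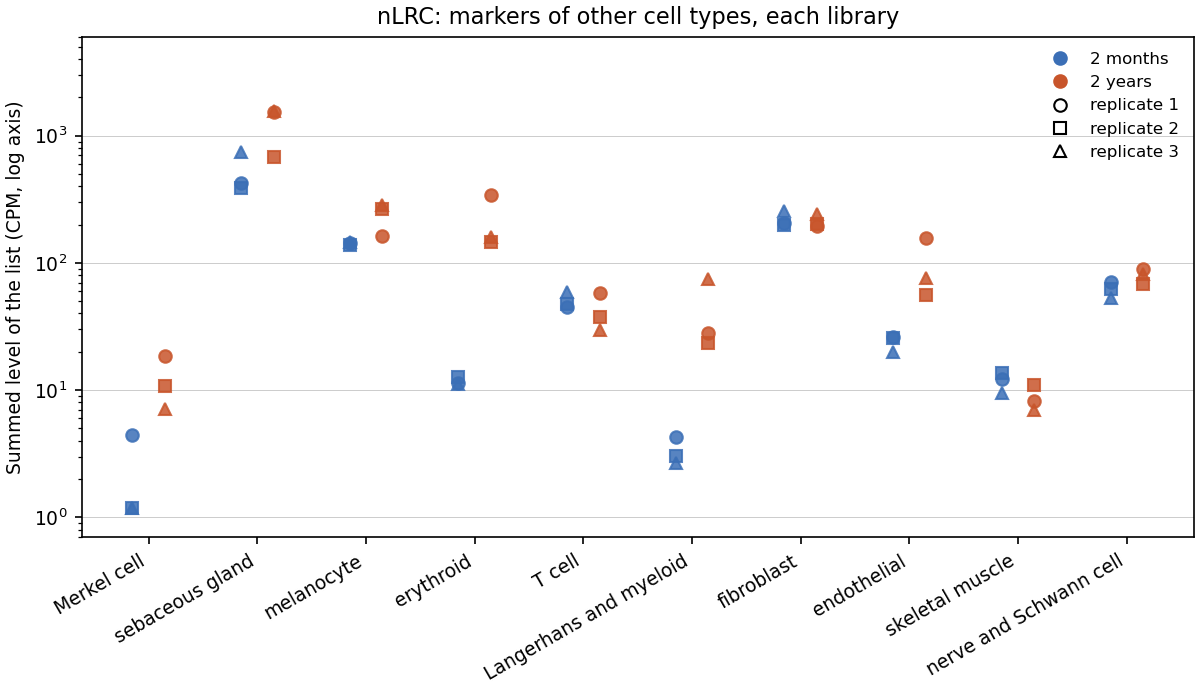
Each symbol is the summed level of 1 marker list in 1 nLRC library (CPM on a log axis), blue for 2 months and orange for 2 years, with the replicate given by the shape. The erythroid, Langerhans and myeloid, endothelial, Merkel cell and melanocyte sums are apart between the ages, as with 11.2 to 12.8 against 146 to 342 CPM for erythroid genes, and the fibroblast, T cell and skeletal muscle sums overlap. Most of the endothelial sum is Pecam1, of whose reads 3.7% were exonic, and most of the T cell sum is Thy1.

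Of the melanocyte list, Dct, Tyrp1 and Tyr encode pigment enzymes and are known targets of the factor MITF. Dct, dopachrome tautomerase, had 2.58, 1.55 and 2.36 CPM at 2 months and 36.7, 86.4 and 76.6 CPM at 2 years (log2 fold change 4.95, SE 0.38, adjusted p 1.41e-04 by edgeR). Tyrp1 (chromosome 4, 80834123 to 80851719) had 0.603, 0.295 and 0.863 CPM and 21.8, 29.1 and 28.2 CPM (log2 fold change 5.47, SE 0.41, adjusted p 1.40e-04 by edgeR). Tyr, the tyrosinase gene, had 0.0738 to 0.431 CPM and 6.56 to 13.8 CPM (log2 fold change 5.75, adjusted p 0.00194 by edgeR). Mitf itself was not called, at 22.7 to 41.2 and 27.1 to 40.9 CPM. The promoters of these 3 genes are printed because all hold TCATGTG, the core of the M-box that MITF is known to bind, within 160 bases before the RefSeq start (GRCm38.p6, 5′ to 3′; capitals mark the match). Searched on both strands, the motif occurs in 2.00% of 32851 windows. The windows lie at chr4:80834053-80834212 on the plus strand and at chr7:87493513-87493672 and chr14:118052247-118052406 on the minus strand.
Tyrp1: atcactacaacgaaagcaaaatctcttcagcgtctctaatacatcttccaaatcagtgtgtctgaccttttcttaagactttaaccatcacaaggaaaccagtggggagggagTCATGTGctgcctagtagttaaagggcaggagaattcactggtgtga
Tyr: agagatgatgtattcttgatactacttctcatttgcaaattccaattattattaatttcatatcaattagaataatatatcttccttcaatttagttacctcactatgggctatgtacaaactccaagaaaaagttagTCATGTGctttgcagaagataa
Dct: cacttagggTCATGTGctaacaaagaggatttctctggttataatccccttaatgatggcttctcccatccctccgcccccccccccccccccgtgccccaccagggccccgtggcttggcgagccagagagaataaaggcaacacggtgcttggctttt
The matches begin 47, 22 and 151 bases before the start of Tyrp1, Tyr and Dct. These genes were printed for their match, so the share of windows is no test of it. Here too a match describes the letters and is not evidence of binding.

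**Figure D4:**
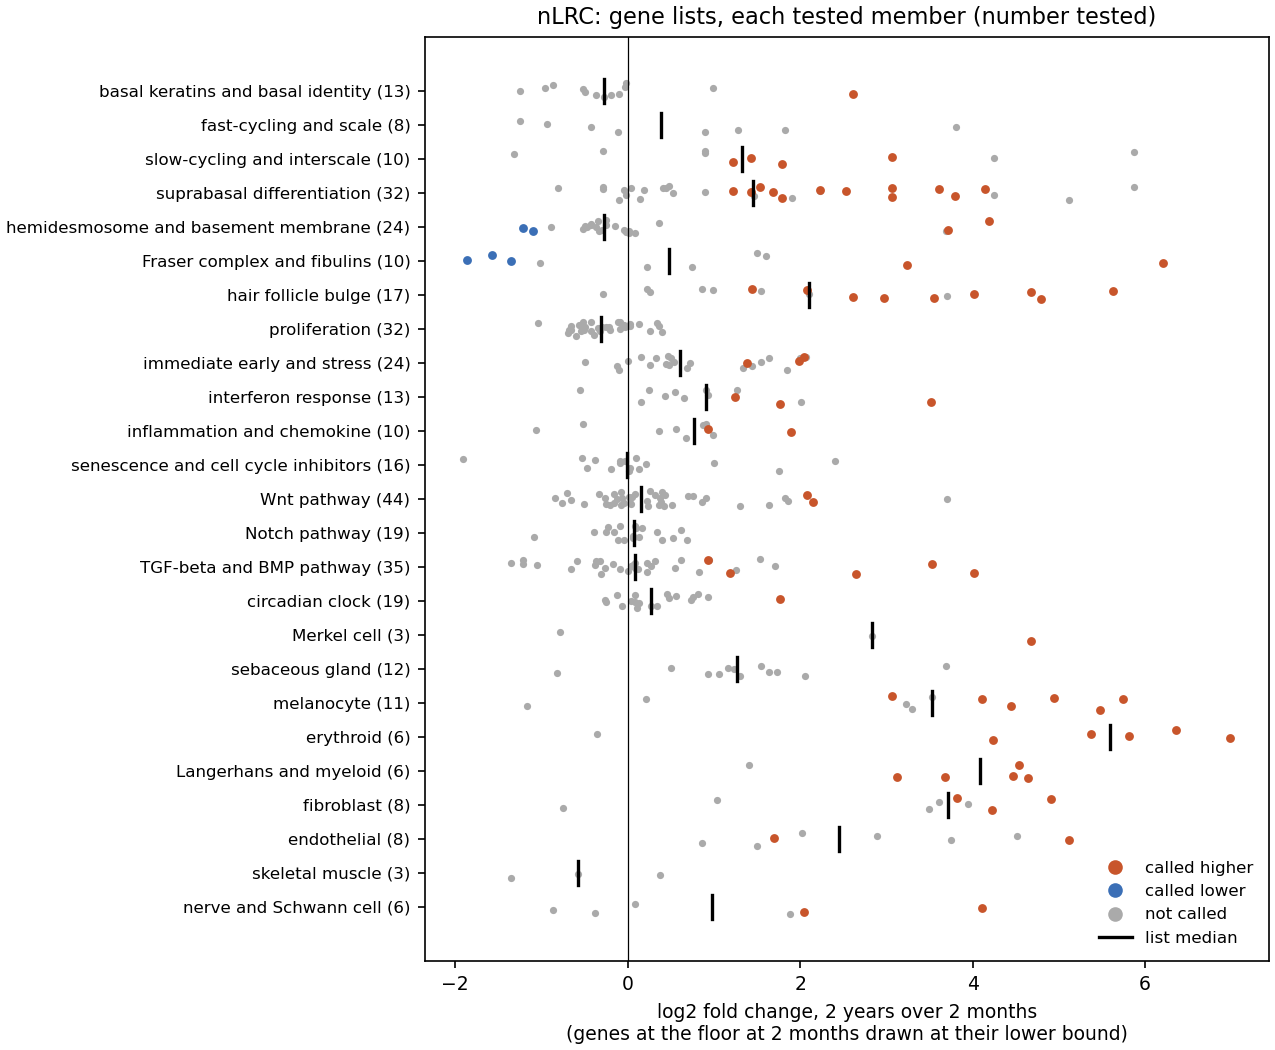
Each point is a tested gene of a list, at its log2 fold change of nLRC at 2 years over 2 months on the x axis; orange points were called higher, blue points lower and grey points not, black bars are list medians, and genes with at most 3 reads in every young library are drawn at their lower bound. The bulge list (median 2.10) and the suprabasal list (median 1.45) lie to the right of the proliferation list (median -0.31), and blue points occur in the Fraser complex and basement membrane lists.

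Genes of cell division leaned to lower values without a call. Against 2.71% of all genes tested, 0 of 32 proliferation genes passed the edgeR test, a share near that background; 25 of the 32 had lower values at 2 years, and the median log2 fold change was -0.31. Mki67, the marker of cycling cells, had 326, 327 and 330 CPM at 2 months and 230.3, 195 and 186 CPM at 2 years, without overlap (log2 fold change -0.69, SE 0.18, adjusted p 0.0784 by edgeR). Of the senescence and cell cycle inhibitor list edgeR called 0 of 16. Cdkn2b, an inhibitor of CDK4 and CDK6, had 3.62, 2.73 and 3.61 CPM at 2 months and 14.1, 5.98 and 13.6 CPM at 2 years, without overlap (log2 fold change 1.76, SE 0.42, adjusted p 0.0577 by edgeR), and was called in 5 of 18 alternatives. Cdkn1a, another inhibitor, had 12.5 to 19.4 CPM and 25.1 to 35.9 CPM (log2 fold change 1.01, adjusted p 0.0783 by edgeR). The basal identity list had 1 called gene of 13, Sox9, and 11 of the 13 had lower values. Krt5 had 10760, 8112 and 11500 CPM at 2 months and 6954, 4669 and 5104 CPM at 2 years (log2 fold change -0.86, SE 0.30, adjusted p 0.206 by edgeR). Krt14 had a log2 fold change of -0.96 (adjusted p 0.192 by edgeR), so both basal keratins were lower in each old library without passing the test.

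Markers that set scale from interscale did not move as one. Of the fast-cycling and scale list 0 of 8 tested genes were called, a share near the 2.71% called over all genes tested. Of the slow-cycling and interscale list 4 of 10 were called higher, against 2.48% of all genes. These were Krt1, Krt10, Lor and Sbsn, which also belong to the suprabasal list. Slc1a3, a glutamate transporter that marks fast-cycling cells, had 9.82, 16.2 and 14.7 CPM at 2 months and 5.74, 6.45 and 9.02 CPM at 2 years (log2 fold change -0.93, SE 0.33, adjusted p 0.217 by edgeR). Dlx1, the marker of slow-cycling cells, had 7.06, 4.21 and 4.24 CPM and 1.48, 2.58 and 2.12 CPM (log2 fold change -1.31, SE 0.51, adjusted p 0.272 by edgeR). The scale keratins Krt36 and Krt84 differed more among the old libraries than between ages, with 746, 26.5 and 1220 CPM for Krt36 and 1244, 48.4 and 2272 CPM for Krt84 at 2 years. At 2 months they had 236 to 330 and 473 to 909 CPM.

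Signalling lists held few called genes, and their counts are to be read against the 2.48% called higher over all genes tested. In the Wnt list 2 of 44 rose, the receptor gene Fzd7 and Dkk3; Fzd7 had 11.1, 8.78 and 8.63 CPM at 2 months and 49.4, 29.9 and 47.1 CPM at 2 years (log2 fold change 2.15, SE 0.27, adjusted p 0.00213 by edgeR). In the TGF-beta and BMP list 5 of 35 rose: the ligand genes Bmp6 and Inhbb, the co-receptor gene Tgfbr3, and Ltbp2 and Ltbp3, whose products bind latent TGF-beta or microfibrils. Inhbb had 3.53, 1.77 and 1.88 CPM and 21.7, 7.74 and 15.9 CPM (log2 fold change 2.65, adjusted p 0.0141 by edgeR). The Notch list had 0 of 19 called. The medians of these 3 lists lay between 0.07 and 0.15. Ltbp2, Ltbp3 and Inhbb each lost their call without 1 or more of the young libraries.

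Stress and immune lists leaned to higher values, and their counts of called genes stand beside 2.48% called higher over all genes tested. Of 24 immediate early and stress genes 21 had higher values and 3 were called, Egr2, Zfp36 and Btg2; Egr2 had 3.70, 3.98 and 5.18 CPM at 2 months and 19.7, 15.2 and 18.5 CPM at 2 years (log2 fold change 2.05, SE 0.30, adjusted p 0.00615 by edgeR). Of 13 interferon response genes 12 had higher values and 3 were called, B2m, Psmb8 and Tap1, which act in antigen presentation. B2m had 8.87, 9.52 and 11.6 CPM and 43.1, 22.4 and 36.4 CPM (log2 fold change 1.76, SE 0.29, adjusted p 0.00979 by edgeR). Of 10 inflammation genes, the chemokine gene Cxcl14 and the NF-kappaB inhibitor gene Tnfaip3 were called. The Langerhans and myeloid sum was higher in all 3 old libraries, and its part in these values was not tested. Zfp36, Btg2, B2m, Psmb8, Tap1, Tnfaip3 and Cxcl14 lost their calls without 2 month replicate 2 or 3, and Egr2 without replicate 2.

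The age change of nLRC was set against that of LRC by a test of the difference, over 12 libraries. It differed in 95 genes (0.606% of 15678, edgeR adjusted p under 0.05), 70 with a larger value in nLRC and 25 with a smaller one. LRC alone had 27 called genes between the ages (0.182% of 14865). The 2 age comparisons share no library, but same-numbered libraries of an age share a library set. The labels do not say whether LRC and nLRC came from the same mice, so the comparisons may not be independent. In both, 15 genes were called, which is 4.09% of the nLRC calls and 55.6% of the LRC calls. Hba-a1, Vim, Dct, Ctgf, Cdsn, B2m and Krt17 are among them. Of the 361 nLRC calls with a value in LRC, 293 had the same direction there, and the share over all genes was not taken. Tyrp1 had log2 fold changes of 5.47 in nLRC and 5.39 in LRC, where it was not called, and their difference of 0.06 had an SE of 1.51. Hbb-bs had 5.81 and 5.43, also not called in LRC (difference 0.34, SE 1.31), and the difference was -0.96 for Dct (SE 0.61) and 0.75 for Pmel (SE 0.54).

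The genes with the smallest p in the test of the difference, and Sox9 and Fras1, are described by their levels. These are on the scale of all 24 libraries. Pappa, a protease of IGF-binding proteins (chromosome 4, 65124174 to 65357509), had 6.30, 4.80 and 3.27 CPM in nLRC and 61.5, 86.5 and 64.2 CPM in LRC at 2 months. At 2 years it had 18.3, 17.9 and 25.0 CPM in nLRC and 23.9, 24.8 and 32.9 CPM in LRC, and the levels of the populations lay closer together (difference of log2 changes 3.47, SE 0.36, adjusted p 5.17e-04 by edgeR). Krt80 rose to 61.9 to 90.7 CPM in nLRC at 2 years, where LRC had 53.6 to 71.5 CPM after 79.8 to 102 CPM at 2 months (difference 2.78, SE 0.28, adjusted p 5.17e-04 by edgeR). Angptl2, a secreted angiopoietin-like protein gene, and Dpysl3, a cytoskeletal regulator gene, gave differences of 2.60 and 3.02 in the same direction (edgeR adjusted p 5.17e-04 and 0.00122). Mettl7a3, a methyltransferase-like gene, went the other way, from 123, 139 and 144 CPM to 59.3, 65.5 and 67.1 CPM in nLRC and from 29.0, 37.5 and 25.7 CPM to 56.8, 51.1 and 60.2 CPM in LRC, where it was not called (difference -1.96, SE 0.23, adjusted p 0.00135 by edgeR). Sox9 gave a difference of 2.49 (adjusted p 0.00201 by edgeR), with 58.0 to 119 CPM in LRC at 2 months and 78.9 to 102 CPM at 2 years. Fras1 gave -2.47 (adjusted p 0.0078 by edgeR), with 27.6 to 54.9 and 41.8 to 63.7 CPM in LRC.

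Against HFSC the age change of nLRC differed in 1001 genes (6.54% of 15301), 614 with a larger value in nLRC and 387 with a smaller one, and HFSC alone had 1792 called genes between the ages (12.7% of 14055). This count rests on libraries labelled HFSC at 2 years that went against their label. Cd34 had 111 to 184 CPM in HFSC at 2 months and 9.25 to 12.3 CPM at 2 years, while nLRC went from 0 to 0.266 CPM to 5.32 to 7.08 CPM. The fitted difference of log2 changes for Cd34 depends on near-zero young nLRC counts and is no bound. Ctgf had 234 to 384 CPM in HFSC at 2 months and 34.9 to 43.6 CPM at 2 years (difference 8.47, SE 0.37, adjusted p 1.90e-09 by edgeR). Timp2, a metalloproteinase inhibitor gene, had 186 to 231 and 44.0 to 62.2 CPM in HFSC and rose from 2.44 to 4.44 CPM to 34.6 to 50.3 CPM in nLRC (difference 5.65, SE 0.32, adjusted p 3.99e-08 by edgeR). Ablim3 likewise had a difference of 5.42 (adjusted p 1.14e-07 by edgeR). Mettl7a3 rose in HFSC from 1.25 to 2.11 CPM to 52.4 to 61.5 CPM and gave a difference of -6.19 (SE 0.26, adjusted p 1.90e-09 by edgeR).

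**Figure D5:**
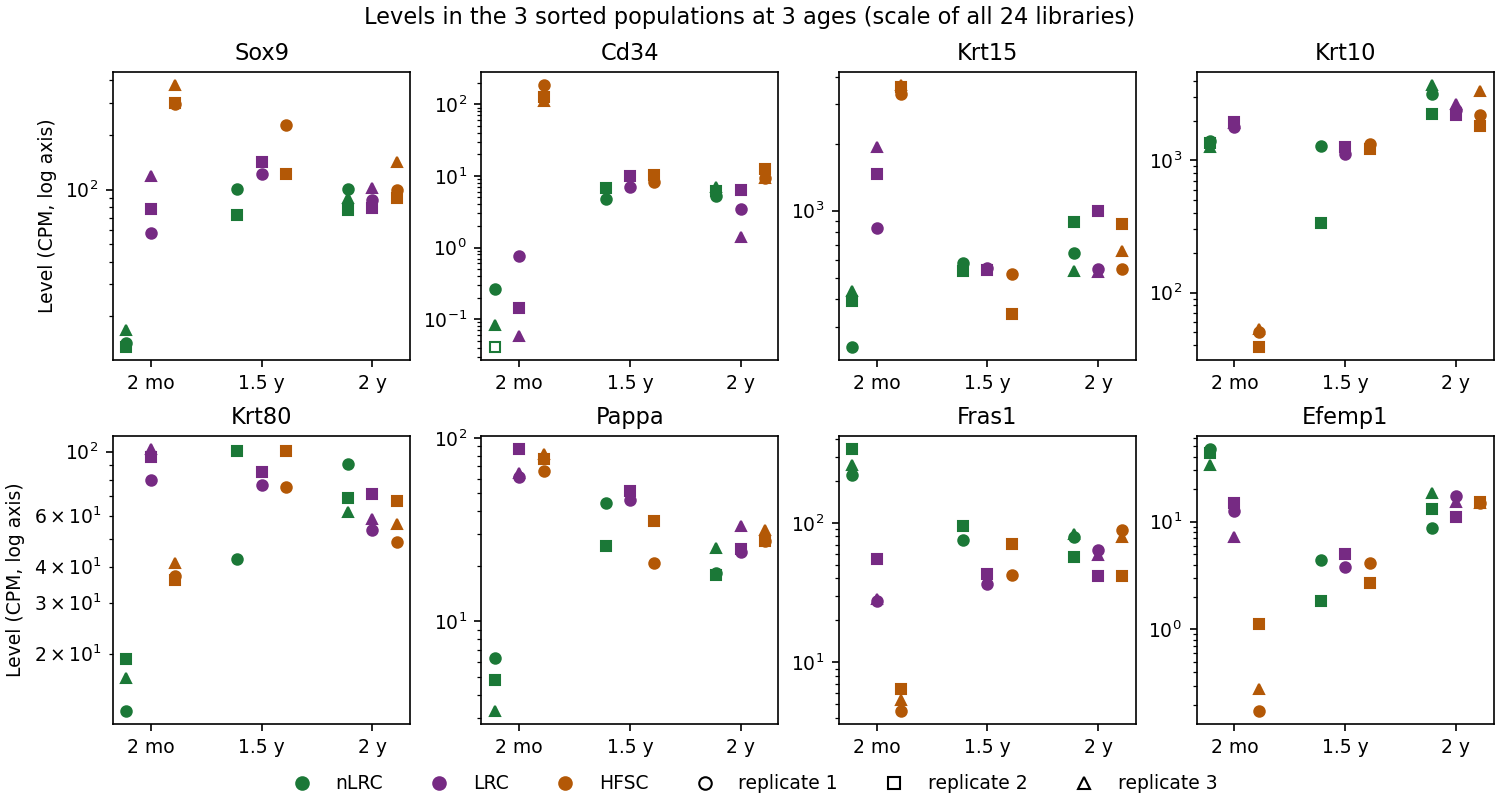
Levels of 8 genes (CPM on log axes, scale of all 24 libraries) in each library of nLRC (green), LRC (purple) and HFSC (orange) at 2 months, 1.5 years and 2 years; shapes give the replicate and the open symbol for Cd34 is a library with 0 reads drawn at the bottom. In each of the 8 genes nLRC and HFSC are apart at 2 months, as with 13.6 to 16.9 CPM of Sox9 in nLRC against 296 to 375 CPM in HFSC; at 2 years Sox9 overlaps, at 76.8 to 100.5 and 90.0 to 142 CPM, while Cd34 (5.32 to 7.08 against 9.25 to 12.3 CPM) and Pappa (17.9 to 25.0 against 27.4 to 31.6 CPM) do not.

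Differences between nLRC and the other populations within an age varied by gene. Sox9 was lower in nLRC than in LRC at 2 months (log2 fold change -2.51, SE 0.25, adjusted p 0.00178 by edgeR) and differed by 0.00 (SE 0.19) at 2 years. Pappa differed from LRC by -3.89 (SE 0.26, adjusted p 3.65e-04 by edgeR) and by -0.41 (SE 0.26), and Mettl7a3 by 2.13 (SE 0.17, adjusted p 7.60e-04 by edgeR) and by 0.19 (SE 0.18). Krt10 differed from HFSC by 4.78 (SE 0.23, adjusted p 1.20e-06 by edgeR) at 2 months and by 0.31 (SE 0.30) at 2 years. At 2 years Ctgf still differed in its fitted value from HFSC by -0.93 (SE 0.23), Cd34 by -0.74 (SE 0.36) and Lhx2 by -1.35 (SE 0.38). None of these differences at 2 years was called (edgeR adjusted p 0.869 to 1). A p that misses the threshold does not show that the populations were alike.

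The 2 nLRC libraries at 1.5 years form a library set of their own with the other populations of that age, hence set and age cannot be told apart and no test was made. On the scale of all 24 libraries Sox9 had 100.4 and 72.6 CPM, Cst6 202 and 241 CPM, Ctgf 22.02 and 74.2 CPM and Tyrp1 22.6 and 15.7 CPM at 1.5 years. These values lay above every nLRC library at 2 months. Fras1 had 75.2 and 95.3 CPM and Efemp1 4.40 and 1.83 CPM, below every nLRC library at 2 months. Krt10 had 1281 and 336 CPM, the second of them below the young libraries, and Krt5 had 3393 and 1964 CPM against 8371 to 12290 CPM at 2 months.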

How the data were processed

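The deposited tables hold, per the file headers, a whole-number count of gene reads, an RPKM and a TPM for each gene. The build is mm10, per the submitters' processing notes; the aligner, counting program, strand setting and annotation are not given in the sources used here. Gene counts, which include introns, were tested as deposited. Exon reads were recovered from the deposited RPKM, as whole numbers within 0.02 reads for 28818 of 28818 genes. Where the annotated exon length did not give whole reads, the smallest length that did was taken, so this count could hardly fall short. Among 13829 genes with a mean of 10 or more reads, the length used equalled the annotated one in 71.2%. In 15 genes exon reads exceeded gene reads and were capped. The exon reads gave the exonic shares and served as an alternative, and the deposited TPM was not used. Coordinates are from GENCODE M21, which matched 47147 symbols.

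In R 4.3.3, edgeR 4.0.16 was run with TMM factors, filterByExpr and a robust quasi-likelihood fit (two-sided F test, Benjamini-Hochberg over all genes, called under 0.05; common biological coefficient of variation 0.347). The age changes of nLRC and of LRC or HFSC were compared by an interaction term over 12 libraries. Fold changes carry the SE implied by F. CPM use TMM-scaled library sizes. Genes with at most 3 reads in every library of an age are at the floor. Such floors reflect counting error alone: without molecular identifiers, several reads can come from 1 molecule. Each fit was tested on simulated counts.

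Named genes were the 15 largest rises and 10 largest falls among called genes that had non-overlapping libraries, a named symbol and a mean log2 CPM of 3 or more, the 3 members of each of 26 lists with the smallest p, a panel of 16 genes, and the 5 smallest p of each interaction test. A few other members are named with their list. Some genes and the results that need them are not reported here. Of the 66 named genes that were called, 33 overlap another annotated gene, and Pecam1, Slc24a3, Pdzrn4, Bnc2, Ablim3 and Pappa had under 40% exonic reads. The genes, lists and tests were chosen with earlier results of these data known. Replicate numbers were not treated as pairs. Promoter windows and their starts are from RefSeq (GRCm38.p6), whose table held 71 of the 103 named genes. Alternatives were DESeq2 1.42.0, other scalings and filters, exon reads, other sample sets and terms, and leaving out each library.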

Additional observations from a re-analysis of the deposited data

Results flagged for a closer look

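The age change differed between nLRC and the other populations by a test of the difference itself, in 95 genes against LRC and in 1001 against HFSC. Against LRC, the difference of log2 fold changes was 2.78 for Krt80, 2.60 for Angptl2, 3.47 for Pappa, 3.02 for Dpysl3 and -1.96 for Mettl7a3. Against HFSC, it was -6.19 for Mettl7a3, 8.47 for Ctgf, 9.43 for Cd34, 5.65 for Timp2 and 5.42 for Ablim3. The value of Cd34 rests on at most 3 reads in each young nLRC library. Both tests use the same nLRC libraries. At 2 years edgeR called 0 genes between nLRC and LRC and 0 between nLRC and HFSC (643 and 702 genes at an unadjusted p under 0.05, 2 and 2 by DESeq2). The spread between libraries was larger in these comparisons than in those at 2 months.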

How the results depend on the processing

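The 367 genes called in nLRC (336 higher, 31 lower) became 800 (685 and 115) by DESeq2, which held all 367, and 983 (769 and 214) with no count filter. They became 225 (215 and 10) with a fold limit of 1.5, and 11 (11 and 0) in the first library set alone, where edgeR gave 437 lower genes at an unadjusted p under 0.05 and DESeq2 called 61 lower. With a term for library set 223 genes were called higher, and 237 of the 367 remained. Leaving out 1 library gave 107 to 485 calls, 103 to 435 higher and 4 to 50 lower. The replicate block gave 417 calls, of which 52 were lower, and 312 were shared with the 367; same-numbered libraries of the 2 ages deviated together with correlations of 0.131, 0.239 and 0.054, not each above 0.1, and were not taken as pairs, although same-numbered libraries share a library set. The difference from LRC, 95 genes, became 249 by DESeq2, 475 with no filter, 63 in the fit of all 24 libraries, 8 in the first set alone, 213 with a replicate block nested in age, and 46 to 104 without 1 library. The difference from HFSC, 1001 genes, became 1543 with no filter, 599 with all 24 libraries, 420 in the first set alone and 749 to 1034 without 1 library. Without the erythroid and melanocyte genes, an alternative chosen after seeing the data, 346 genes were called. RLE, upper quartile and TMM scaling moved the median of all genes by less than 0.1. The first set and the leave-one-out fits hold fewer samples; for the other settings the cause was not tested.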

Other observations

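Of the 11 genes called in the first library set alone, 4 lie outside the rule for named genes and are given here because of that call, after their values were seen. Krt79, a keratin of the follicle canal, had 35.1, 44.6 and 62.0 CPM in nLRC at 2 months and 368, 259.6 and 366 CPM at 2 years (log2 fold change 2.81, SE 0.26, adjusted p 4.31e-04 by edgeR). Spink5, whose product LEKTI inhibits the proteases of skin shedding, had 15.6, 21.5 and 22.5 CPM and 182, 143 and 137 CPM (log2 fold change 2.95, SE 0.22, adjusted p 1.33e-04 by edgeR). Ly6g6c, a Ly6 family gene, had 9.47, 7.75 and 9.50 CPM and 60.03, 65.5 and 123 CPM (log2 fold change 3.22, adjusted p 5.17e-04 by edgeR). Pdzrn3, a relative of the fallen Pdzrn4, rose from 5.25, 7.01 and 4.24 CPM to 82.99, 68.8 and 97.4 CPM (log2 fold change 3.91, SE 0.26, adjusted p 1.01e-04 by edgeR). On the scale of all 24 libraries, Spink5 had 217 to 671 CPM in HFSC and 63.0 to 69.8 CPM in LRC at 2 months, and 97.2 to 184 CPM in all 9 libraries at 2 years.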
